A study of Homo sapiens with 6 samples.

Results

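The genes described here encode the netrin and draxin guidance cues and their receptors: the ligands NTN1, NTN4 and DRAXIN, and the receptors UNC5A, UNC5B, UNC5C, DCC and NEO1. They are 8 of the 58299 gene IDs in a table of RNA-seq counts from AC16 cells. AC16 is an established human line derived by fusing ventricular cells with a fibroblast line, so it is only in part of cardiac muscle origin. The 2 groups were 3 libraries of cells given the vehicle, DMSO at 0.1%, and 3 libraries of cells given doxorubicin at 100 nM, both for 48 h. Doxorubicin is an anthracycline that traps type II topoisomerases on DNA. Both groups were otherwise the same line, with no genetic change named in the labels. The 8 genes were chosen by name with their doxorubicin and DMSO counts already known, so the levels and fold changes below are a description of those counts and not independent evidence. Whether libraries within a treatment stem from independent cultures is not stated in the labels, so their spread may be technical.

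Netrins are secreted, laminin-related proteins first studied as cues for growing axons. DCC and its relative neogenin (NEO1) mediate attraction to netrin 1, and the UNC5 receptors mediate repulsion. Draxin is a secreted protein that also binds DCC and netrin 1. DCC and the UNC5 proteins are called dependence receptors, because without ligand they can be cleaved by caspases and promote cell death. UNC5B was also described as a target of p53. Outside the nervous system, netrin 1 and UNC5B act in blood vessels, and netrin 4 is a component of basement membranes.

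Total counts ran from 17252862 to 19571731 per library. Library values are given as counts scaled to a common library total (CPM) after trimmed-mean (TMM) scaling. Levels of different genes are compared only as TPM, a unit that divides each count by the gene's summed exon length before scaling. Defining cardiomyocyte genes were nearly absent: 10 of 10 listed markers had under 10 counts in every library, and MYH6, MYH7, MYL2, MYL7 and RYR2 were at 0 in all DMSO libraries. The 10 markers summed to between 0.312 and 0.442 CPM in DMSO and between 1.06 and 1.99 CPM in doxorubicin, and 0 were tested. Summed over the libraries of a group, RYR2 went from 0 to 22 counts and NPPA from 14 to 5. The 10 fibroblast markers summed to between 24588 and 26724 CPM in DMSO and between 14046 and 17840 CPM in doxorubicin. Of these, 7 were called lower and 0 higher, beside 32.0% and 32.7% of all tested genes. COL1A1 went from 9864 to 3156 CPM, while FN1, at 8741 and 9449 CPM, was not called, nor were DCN and LUM. The 8 neuronal markers summed to between 23.6 and 27.0 CPM in DMSO and between 24.3 and 26.7 CPM in doxorubicin. By CPM, most of that sum was SYT1, which was not called (as TPM in DMSO it was at 9.03, beside 8.49 for SNAP25). RBFOX3, ELAVL4, STMN2 and GAP43 did not pass the filter on low counts. The others moved both ways. SYN1, at 0.476 CPM in DMSO and 1.24 in doxorubicin, was called 2.59-fold higher, and MAP2 and SNAP25 were called 1.58-fold and 1.38-fold lower. In bulk RNA, fewer cells with a transcript and less transcript per cell cannot be told apart.

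DRAXIN, which went from near silence to a clear signal, and NTN4, which was expressed in both groups, are shown with the 250 bases before a RefSeq transcription start (GRCh38.p14). The DRAXIN stretch is chr1:11691460-11691709 on the plus strand. The NTN4 stretch is chr12:95791156-95791405 on the minus strand and precedes the upstream one of its 2 RefSeq starts. That start lies 3 bases from the first counted base of the gene, and the downstream start lies 388 bases from it. Both are written 5′ to 3′ in the direction of transcription. Capitals mark a TATA box (TATAAA) or CCAAT box, a GC box (GGGCGG) or the p53 half-site consensus, each searched on both strands.
DRAXIN: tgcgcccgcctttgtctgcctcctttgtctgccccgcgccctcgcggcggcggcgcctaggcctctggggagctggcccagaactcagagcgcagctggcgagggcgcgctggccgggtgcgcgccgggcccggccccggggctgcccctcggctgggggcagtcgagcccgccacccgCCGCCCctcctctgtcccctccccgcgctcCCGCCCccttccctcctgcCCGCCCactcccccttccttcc
NTN4: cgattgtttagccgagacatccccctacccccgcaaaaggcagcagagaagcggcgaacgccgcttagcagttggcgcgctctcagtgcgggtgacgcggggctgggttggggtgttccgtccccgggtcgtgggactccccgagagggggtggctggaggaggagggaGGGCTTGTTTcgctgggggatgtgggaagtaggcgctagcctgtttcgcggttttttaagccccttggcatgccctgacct
The DRAXIN stretch held 3 GC boxes, which overlapped no other match, and its GC content was 78.8%. The NTN4 stretch held 1 match to the p53 half-site consensus and no GC box, at a GC content of 64.4%. The stretch before the downstream NTN4 start, chr12:95790765-95791014, differed on each of these points, with 4 GC boxes, no p53 half-site match and a GC content of 78.4%. What sets NTN4 apart from DRAXIN in these letters therefore depends on the start chosen. Of 35116 such stretches in the RefSeq table, 42.6% held a GC box, 32.0% a CCAAT box, 10.7% a TATA box and 5.57% a p53 half-site match. None of the 3 stretches held a CCAAT or TATA box. A match is only a run of letters, and binding was not measured here.

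Across the 8 genes, the ligand genes NTN1 and DRAXIN rose from near silence, UNC5B rose from a very low level, and NEO1, the most expressed receptor, fell 1.95-fold. NTN1 was 156-fold and DRAXIN 162-fold higher after doxorubicin, UNC5B was 10.8-fold higher and NTN4 was 1.33-fold higher. UNC5C was 2.84-fold lower. UNC5A and DCC stayed at a handful of counts. Of the 8 genes, 6 passed the filter on low counts, and 4 were called higher and 2 lower in the quasi-likelihood fit of edgeR, taking an adjusted p below 0.05 as a call. Of all 15358 tested genes, 64.7% were called, 32.7% higher and 32.0% lower. DRAXIN, UNC5B and NTN1 passed the filter through their doxorubicin libraries and UNC5C through its DMSO libraries, so they entered the test through the group in which they were high. Only NTN4 and NEO1 passed in both groups. All 6 had groups that did not overlap, which held for 69.1% of tested genes, 34.8% upward and 34.3% downward.

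**Figure D1:**
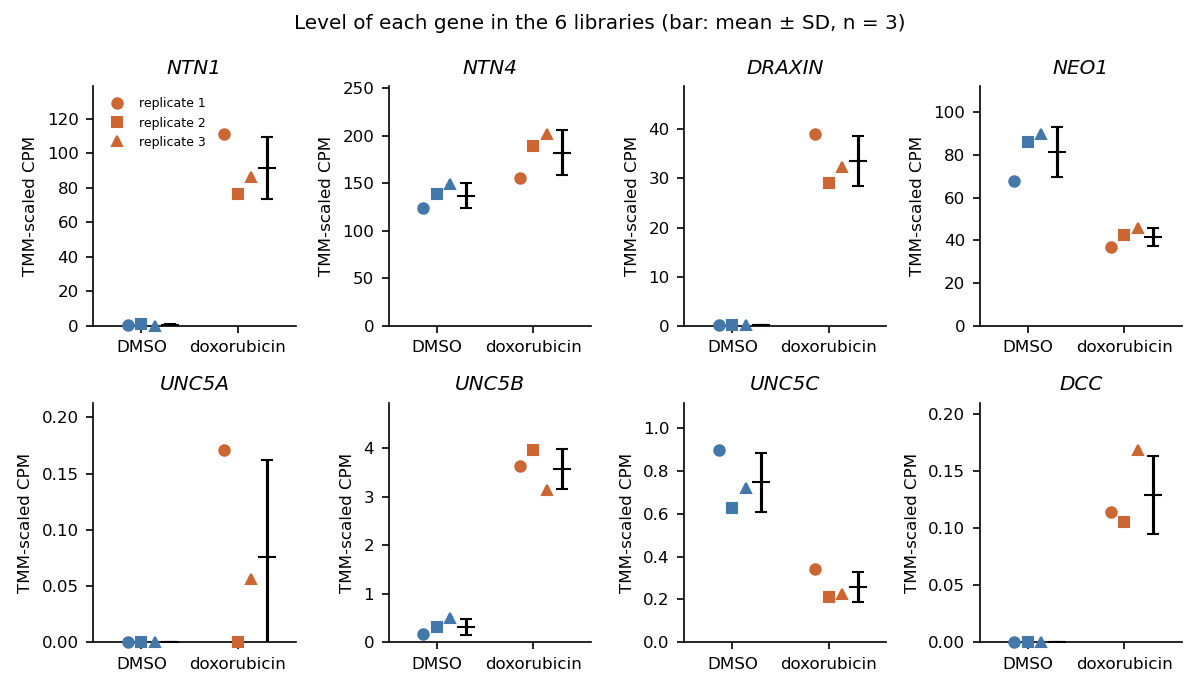
TMM-scaled CPM (vertical axes, linear, from 0, with a different scale in each panel) of the 8 genes in each DMSO (blue) and doxorubicin (orange) library, with the replicate shown by the symbol and the mean ± SD of 3 libraries beside it; the SD bar of UNC5A is drawn only down to 0. The doxorubicin libraries of NTN1 lie between 76.8 and 111 CPM, against 0.221 to 0.833 in DMSO, while NEO1 falls from between 67.9 and 89.9 to between 37.2 and 45.7.

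NTN1 (ENSG00000065320, chr17:9021542-9244000, plus strand, GRCh38), which encodes netrin 1, the ligand shared by DCC and the UNC5 receptors, has 8 merged exons and 6383 exon bases in the table. The DMSO libraries held 12, 16 and 4 counts, in the order of their replicate numbers, and the doxorubicin libraries 1959, 1455 and 1543. All 3 DMSO libraries held few counts, and the lowest doxorubicin library was far above the highest of them. In CPM this was 0.575 ± 0.317 (SD, n = 3) against 91.5 ± 17.8 (SD, n = 3), and the fitted log2 fold change was 7.29 ± 0.27 (SE). The 32 counts of the DMSO group limit the precision: the ratio of summed counts was 157, with an exact 95% counting interval of 111 to 230.0. None of its exon bases lay in exons of another gene (0%).

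DRAXIN (ENSG00000162490, chr1:11691729-11725857, plus strand, 7 merged exons) encodes draxin, the dorsal repulsive axon guidance protein. Counts were 3, 3 and 5 in the DMSO libraries and 687, 551 and 579 in the doxorubicin libraries. As with NTN1, every DMSO library held few counts and the groups were far apart. CPM went from 0.200 ± 0.0662 (SD, n = 3) to 33.5 ± 5.07 (SD, n = 3), a fitted log2 fold change of 7.34 ± 0.22 (SE). The ratio of summed counts, 11 against 1817, was 168, with an exact counting interval of 93.4 to 336. Among all tested genes, DRAXIN held rank 52 and NTN1 rank 55 from the highest log2 fold change.

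NTN4 (ENSG00000074527, chr12:95657807-95791152, minus strand, 14 merged exons), the basement membrane netrin, was the abundant ligand in both groups. Its counts were 2214, 2655 and 2702 in DMSO and 2743, 3583 and 3607 in doxorubicin. Scaled values were 124, 138 and 149 CPM in DMSO and 156, 189 and 202 CPM in doxorubicin. The groups were apart, but by a narrow margin: the highest DMSO library was close to doxorubicin replicate 1. The log2 fold change was 0.41 ± 0.10 (SE), rank 4478 from the highest, and without doxorubicin replicate 1 it was 0.51.

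Of the receptors, NEO1 (ENSG00000067141, chr15:73051710-73305206, plus strand, 32 merged exons) was the most expressed. It encodes neogenin, a receptor for netrins and for repulsive guidance molecules. Counts were 1215, 1652 and 1627 in DMSO and 654, 805 and 816 in doxorubicin. Every doxorubicin library was below every DMSO library. CPM fell from 81.3 ± 11.7 (SD, n = 3) to 41.8 ± 4.30 (SD, n = 3), with a log2 fold change of -0.96 ± 0.11 (SE), rank 1076 from the lowest. Its relative DCC (ENSG00000187323, chr18:52340172-53535903, plus strand, 41 merged exons) had 0 counts in all 3 DMSO libraries and 2, 2 and 3 in doxorubicin. DCC was below the filter and not tested. The 0 counts of the 3 DMSO libraries together allow up to 3 counts, or 0.0543 CPM. The 7 doxorubicin counts are 0.129 CPM with an exact counting interval of 0.0517 to 0.265, which reaches below that floor, so no fold is given.

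UNC5B (ENSG00000107731, chr10:71212570-71302864, plus strand, 17 merged exons), an UNC5 receptor known from blood vessels, was the receptor that rose. Its counts were 3, 6 and 9 in DMSO and 64, 75 and 56 in doxorubicin. The spread within each group was small beside the gap between groups. CPM went from 0.326 ± 0.165 (SD, n = 3) to 3.58 ± 0.415 (SD, n = 3), a log2 fold change of 3.43 ± 0.32 (SE) and rank 405 from the highest. On summed counts, 18 against 195, the ratio was 10.99, with an exact counting interval of 6.77 to 18.9. UNC5C (ENSG00000182168, chr4:95162504-95549206, minus strand, 18 merged exons) moved the other way, from counts of 16, 12 and 13 to 6, 4 and 4. Its log2 fold change was -1.51 ± 0.43 (SE), rank 310 from the lowest, and rested on 55 counts in all. With DESeq2, UNC5C had a log2 fold change of -1.54 but was not called (adjusted p = 0.074, against 0.0066 to 0.03 under the other alternatives that tested it). UNC5A (ENSG00000113763, chr5:176810477-176880898, plus strand, 18 merged exons) had 0 counts in DMSO and 3, 0 and 1 in doxorubicin. Its 4 doxorubicin counts are 0.0735 CPM, with an exact counting interval of 0.0200 to 0.188 that spans the same floor, so no difference was detectable at this depth. UNC5A was not tested.

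**Figure D2:**
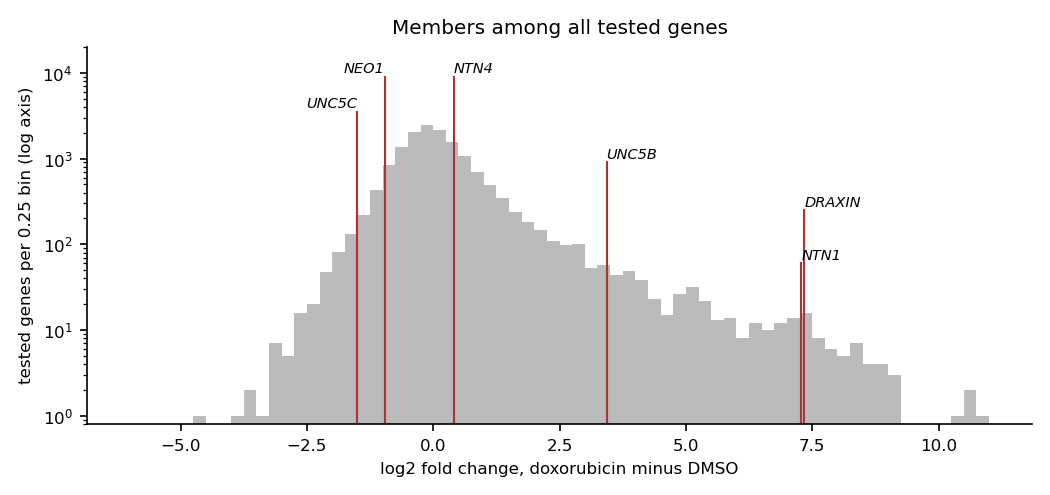
Histogram of the log2 fold change, doxorubicin minus DMSO (horizontal axis), of the 15358 tested genes, with the number of genes per 0.25 bin on a log axis; red lines mark the 6 tested genes of the family, and their height carries no value. NTN1 and DRAXIN lie in the far upper tail at 7.29 and 7.34, and NTN4, at 0.41, lies close to the centre.

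Because the 8 genes differ in exon length, their levels were ordered as TPM. In DMSO the order was NTN4 (142 ± 10.5 TPM, SD, n = 3), NEO1 (43.1 ± 5.45), NTN1 (0.390 ± 0.216), UNC5C (0.301 ± 0.0606), UNC5B (0.204 ± 0.100) and DRAXIN (0.117 ± 0.0369), with UNC5A and DCC at 0 counts. The ranges of NTN1 and UNC5C overlapped, as did those of UNC5C and UNC5B and of UNC5B and DRAXIN, so neighbours below NEO1 were not resolved, although the UNC5C range lay above that of DRAXIN. In doxorubicin the order was NTN4 (193 ± 23.9 TPM), NTN1 (63.3 ± 12.4), NEO1 (22.7 ± 2.15), DRAXIN (20.2 ± 3.05), UNC5B (2.31 ± 0.302), UNC5C (0.107 ± 0.0299), UNC5A (0.0764 ± 0.0886) and DCC (0.0432 ± 0.0106). NTN1 was above NEO1 in every doxorubicin library, while in every DMSO library it was below. The ranges of NEO1 and DRAXIN overlapped in doxorubicin, as did those of UNC5A with UNC5C and DCC.

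The make-up of the ligands and of the receptors among these genes followed from these levels. NTN4 made up 99.6%, 99.5% and 99.8% of the summed ligand TPM in the DMSO libraries and 62.2%, 74.0% and 73.0% in the doxorubicin libraries. NTN1 went from a share of 0.280% ± 0.160 (SD, n = 3) to 23.0% ± 5.21, and DRAXIN from 0.0817% ± 0.0210 to 7.31% ± 1.32. NTN1 was the second ligand by level in all 3 doxorubicin libraries. NEO1 made up 98.8% ± 0.168 of the summed receptor TPM in DMSO and 89.9% ± 1.79 in doxorubicin, where UNC5B took 10.2%, 9.91% and 7.47%. Summed ligand TPM was 142 ± 10.4 in DMSO and 277 ± 10.9 in doxorubicin, and summed receptor TPM was 43.6 ± 5.48 and 25.3 ± 1.96. Their ratio was 3.52, 3.12 and 3.20 in the DMSO libraries and 11.6, 10.5 and 10.8 in the doxorubicin libraries. The sums leave out other ligands of these receptors. Of the repulsive guidance molecules, RGMB was at 54.0 TPM in DMSO and 32.6 in doxorubicin, and RGMA at 0.00566 and 1.39. These are ratios of transcripts, and protein was not measured.

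**Figure D3:**
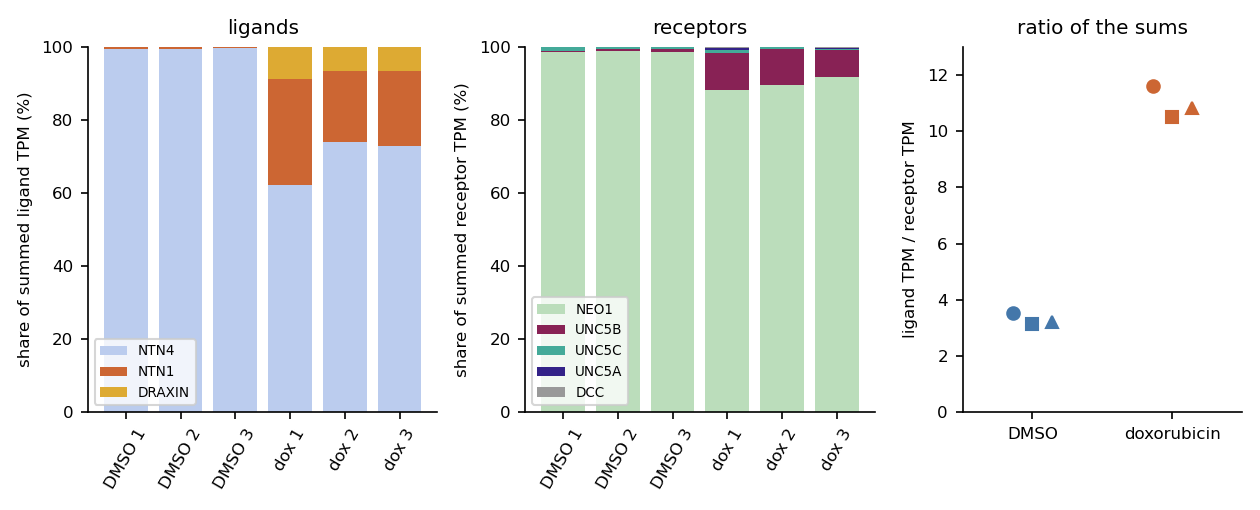
Left and middle, stacked bars of each gene's share (%) of the summed ligand TPM and of the summed receptor TPM in each library (dox, doxorubicin); right, the ratio of ligand to receptor TPM per library, with symbols for replicates 1 to 3. NTN1 and DRAXIN fill a visible part of the ligand bars only in doxorubicin, UNC5B does so among the receptors, and the ratio lies between 3.12 and 3.52 in DMSO and between 10.5 and 11.6 in doxorubicin.

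Doxorubicin replicate 1 stood apart from replicates 2 and 3 in several of these genes. On the log2 CPM scale it exceeded their mean by 0.45 for NTN1, 0.35 for DRAXIN and 0.46 for UNC5C, and differed from it by -0.33 for NTN4 and -0.24 for NEO1. The UNC5C value is 6 counts against 4 and 4, too few to set the library apart. For UNC5B the difference was 0.04. The summed fibroblast markers were also lowest in that library, at 14046 CPM. Its part in the results was not tested beyond leaving it out, and all 6 calls were also made without it.

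The genes whose pattern over the 6 libraries was most like each of these were found by the root mean square difference of centred log2 CPM, among the 12528 tested genes whose mean log2 CPM was 1 or more. For NTN1 they were TREM2 (0.42) and HES2 (0.47), and for DRAXIN they were MYH16 (0.23) and DSC3 (0.23). GDNF-AS1 (0.08) and KCNA7 (0.18) were closest to UNC5B, COTL1 (0.05) and GGT7 (0.05) to NTN4, PPARG (0.06) and MAP3K5 (0.06) to NEO1, and ENDOG (0.14) and GSTA4 (0.14) to UNC5C. With 2 groups of 3 libraries, this measure follows mainly the shift between groups in log2 CPM, which can differ from the fitted log2 fold change. The fitted values were 9.11 for TREM2 and 8.29 for HES2, against 7.29 for NTN1. For DSC3 the fitted value was 10.5, against 7.34 for DRAXIN. Near NEO1, at -0.96, they were closer, at -1.08 for PPARG and -0.90 for MAP3K5. A small distance therefore does not mean an equal fitted fold change.

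Other genes of netrin signalling, and genes of neighbouring guidance families, moved in both directions. The lists below include 6 Slit and Robo genes and 11 plexins and neuropilins, so their pooled values are not those of netrin signalling alone. Over 6 lists holding 63 genes, 51 were tested, of which edgeR called 23 (45.1%) higher and 20 (39.2%) lower, beside 32.7% and 32.0% of all tested genes. The median log2 fold change was 0.15 against -0.0013 for all tested genes. The lists were drawn up from textbook knowledge with earlier results of these data known.

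Of 7 other netrins and netrin receptors, 2 were tested, and 1 rose and 0 fell, beside 32.7% and 32.0% of all tested genes. The gene that rose was NTNG2, which encodes the membrane-anchored netrin G2. It went from 2.23 ± 0.338 to 8.92 ± 1.62 CPM (SD, n = 3), 3.99-fold, with an edgeR adjusted p of 1.1e-07. UNC5D, the remaining UNC5 receptor, had at most 1 count in any library.

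Among 15 further ligands and partners of UNC5, DCC and neogenin, 12 were tested, 7 rose (58.3%, beside 32.7% of all tested genes) and 4 fell (33.3%, beside 32.0%), and the median log2 fold change was 0.45. RGMA, which encodes a repulsive guidance molecule that binds neogenin, had 0, 1 and 0 counts in DMSO and 103, 69 and 52 in doxorubicin. Summed, that is 1 count against 224, a ratio of 227 with an exact counting interval of 40.4 to 9015. RGMA passed the filter through its doxorubicin libraries alone, so its call is a description. Its relative RGMB fell, from 83.8 ± 16.4 to 49.3 ± 0.330 CPM (SD, n = 3), or -0.77 ± 0.13 (SE) on the log2 scale. RGMB shares 45.6% of its exon bases with other genes, and its longest overlap is with an opposite-strand gene that had 17 counts against 7325. FLRT2, a membrane ligand of UNC5 receptors, rose from 4.51 ± 0.865 to 23.9 ± 2.14 CPM, or by 2.41 ± 0.14 (SE) on the log2 scale (edgeR adjusted p = 2.3e-10). The integrin genes moved both ways: the alpha chain genes ITGA6 and ITGA3 rose 3.82-fold and 1.40-fold, while ITGB1, the integrin beta 1 chain, fell 1.77-fold and ITGB4 fell 1.46-fold. MCAM, a surface adhesion molecule, fell 1.33-fold. ITGB4 was not called with DESeq2, nor without DMSO replicate 1 or doxorubicin replicate 2.

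Of 18 adaptors and effectors, 17 were tested, 6 rose (35.3%, beside 32.7% of all tested genes) and 8 fell (47.1%, beside 32.0%), with a median of -0.14. One of the 6, WASL, an activator of actin branching, was called at 1.14-fold higher, but 7 of the 13 alternatives did not call it: DESeq2, no filter, and leaving out any library other than doxorubicin replicate 3. DOCK1, an activator of the GTPase RAC1, fell from 76.5 ± 2.18 to 31.6 ± 1.07 CPM (SD, n = 3), a log2 difference of -1.27 ± 0.07 (SE; edgeR adjusted p = 1.5e-10). ABLIM1, an actin-binding protein gene, rose from 21.1 ± 3.28 to 62.1 ± 4.51 CPM, a log2 difference of 1.56 ± 0.10 (SE). All 6 partners in dependence-receptor death signalling were tested, with a median of -0.31. Of these, 2 were called higher (33.3%, beside 32.7% of all tested genes) and 3 lower (50%, beside 32.0%). APPL1, an adaptor that binds DCC, fell 2.01-fold, PPP2R1B, a phosphatase 2A scaffold, fell 1.46-fold, and CASP9, an initiator caspase, fell 1.30-fold. MAGED1, which binds UNC5A, was called at 1.11-fold higher, but 6 of the 13 alternatives did not call it. Those were DESeq2, no filter, and leaving out DMSO replicate 2, DMSO replicate 3, doxorubicin replicate 1 or doxorubicin replicate 3.

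The neighbouring guidance families were read the same way. Of 6 Slit and Robo genes, 4 were tested, 1 rose (25%, beside 32.7% of all tested genes) and 2 fell (50%, beside 32.0%). SLIT3 fell 2.92-fold, from 6.58 ± 0.152 to 2.25 ± 0.305 CPM (SD, n = 3), ROBO1 fell 1.70-fold, and ROBO4 rose 1.57-fold. ROBO4 was not called with DESeq2 or without doxorubicin replicate 2. Of 11 plexins and neuropilins, which are semaphorin receptors, 10 were tested, with a median of 0.49. Of these, 6 were called higher and 3 lower, beside 32.7% and 32.0% of all tested genes. The 6 include PLXNA3, 1.19-fold higher with overlapping groups, which was not called without DMSO replicate 1, DMSO replicate 2 or doxorubicin replicate 2. PLXNB3 rose from 14.98 ± 1.75 to 108 ± 7.11 CPM, a log2 difference of 2.85 ± 0.09 (SE; edgeR adjusted p = 1.9e-13), and PLXNB1 rose 3.37-fold. PLXNB3 shares 20.4% of its exon bases with other genes, and its longest overlap is with SRPK3 on the same strand, which had 447 counts against 6712. NRP2, NRP1 and PLXND1 fell 2.84-fold, 1.93-fold and 1.56-fold. In none of these lists was the difference from the other tested genes tested.

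**Figure D4:**
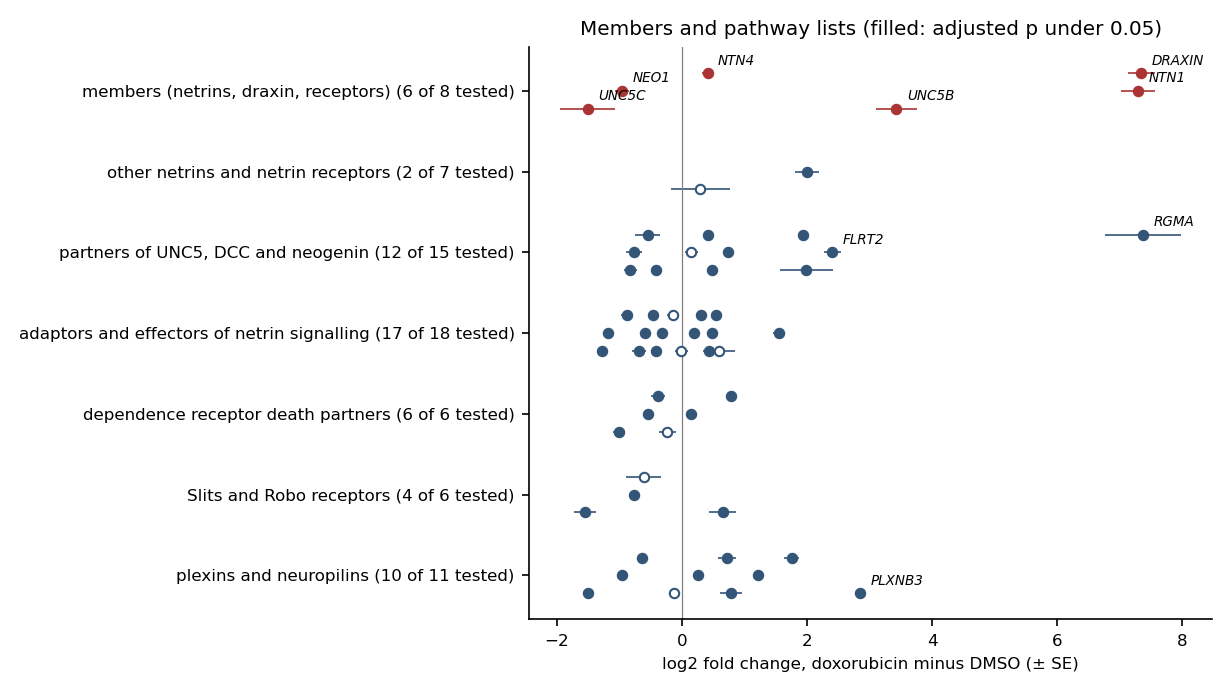
Log2 fold change, doxorubicin minus DMSO, with SE (horizontal axis), of the tested netrin, draxin and receptor genes (red) and of the tested genes of 6 related lists (blue), one row per list; filled points have an adjusted p under 0.05 and open points do not, and the vertical offset within a row carries no value. The fitted values of NTN1, DRAXIN and RGMA lie between 7.29 and 7.37, well to the right of the next value, UNC5B at 3.43.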

How the data were processed

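Poly(A)-selected, unstranded libraries of AC16 cells came from a TruSeq v2 kit (per the labels). The authors deposited unnormalized gene-level counts with a column for each library, laid out as featureCounts writes them per the file headers. Alignment and counting tools listed in the submitters' processing notes are featureCounts, Subread, SAMtools and STAR, with GRCh38 as the build. Their versions and settings are not given in the sources used here. Without strand, reads of a gene and an opposite-strand overlapping gene cannot be told apart, so shared exon bases were computed from the table's exons. Columns of other samples numbered 0.

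IDs were matched to symbols by a gene name table (57717 of 58299 IDs) and GENCODE release 29, and all 8 genes matched. The test was edgeR 4.0.16 (R 4.3.3) with filterByExpr (minimum count 10, minimum total 15), TMM scaling, robust quasi-likelihood F test, two-sided, Benjamini-Hochberg over 15358 genes. The SE is approximate (fold change over the square root of F). TPM was computed over the whole table. Counting intervals are exact 95% intervals and, like the floor of 3 counts, cover counting error only. Pairs of libraries from 1 group differed by a chi-square of 2.82 to 9.39 times its degrees of freedom, so no library was a duplicate. The test was checked on simulated counts in which few genes changed, all above a minimum mean count. That check covers neither the near-zero DMSO counts nor the widespread change seen here.

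The 8 genes, the lists and the rule for named genes were chosen with earlier results of these data known. The rule names the 8 genes, the 2 called genes of each list that changed most among those at 1 or more in mean log2 CPM, every called gene in a direction with 5 or fewer, and the 2 nearest patterns per tested gene. A gene that this rule names in the lists is not reported here, and ITGA3, ITGA6, PLXNA3 and WASL were added after their values were seen. RefSeq promoter stretches were matched by symbol for 6 of the 8 genes. The endothelial markers summed to 15.1 to 17.0 CPM in DMSO and 10.3 to 12.2 in doxorubicin. Most of that sum was TEK, called 1.96-fold lower, while PECAM1 was called 3.40-fold higher, from 0.309 to 1.06 CPM. VWF, KDR and CLDN5 were not called, and CDH5 was not tested. Smooth muscle markers summed to 290 to 426 CPM in DMSO and 213 to 362 in doxorubicin. Most of that sum was TAGLN, which was not called, while ACTA2 and MYH11 were called 7.65-fold and 1.93-fold higher. Immune markers summed to 1.96 to 2.60 and 2.85 to 3.47 CPM. The alternatives comprised DESeq2 1.42.0, scaling by upper quartile, by RLE or by library totals only, no filter, at least 1 CPM in 3 samples, the replicate number as a block, and each library left out.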

Additional observations from a re-analysis of the deposited data

How the results depend on the processing

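All 6 tested genes of the family kept their direction under the 13 alternatives, where tested. The log2 fold change ran from 6.90 to 7.65 for NTN1, 7.18 to 7.63 for DRAXIN, 3.12 to 3.84 for UNC5B, 0.34 to 0.51 for NTN4, -1.08 to -0.88 for NEO1 and -1.74 to -1.37 for UNC5C. The count called lower was 1 instead of 2 with DESeq2 and with the filter of 1 CPM in 3 samples, which left UNC5C untested. With no filter, 5 were called higher, the addition being DCC on 7 counts (adjusted p = 0.048, edgeR), which DESeq2 did not call (adjusted p = 0.17). Of the death partners, 1 was called higher in place of 2 with no filter and with DESeq2, and 1 to 2 with a library left out. With no filter, 4 of them were called lower in place of 3, the addition being DAPK1 (adjusted p = 0.0019, edgeR). Of the Slit and Robo genes, 3 were called higher in place of 1 with no filter, and 0 to 2 with a library left out. Scaling by library totals moved the median of all genes from -0.0013 to 0.04. With the replicate number as a block, 9920 genes were called against 9934, with 4 and 2 of the family higher and lower. SLIT2 was called with the block alone, and TRIM9 with the block, with library totals only and without DMSO replicate 1. Same-numbered libraries correlated at 0.05, -0.02 and 0.03 in their deviations, and not every library correlated best with its own number, so the numbers were not taken to pair them. Depth limits UNC5A, DCC, UNC5C and the DMSO levels of NTN1, DRAXIN and UNC5B.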
